A study of Homo sapiens with 5 samples.

Results

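A set of 107 transcripts was enriched in both hnRNPK RIPs of MCF10A cells but weak in the CBFB RIP. RIPseq sequences the RNA that comes down with a protein, and the enrichment used here was the log2 ratio of the FPKM in the RIP to the FPKM in the input RNA of the same cells. A pseudocount of 1 was added to both FPKM values, and each RIP was then centred on the average of its log2 ratios, taken across the 11764 analysed genes. A gene was a member when its enrichment was above 2, which is 4-fold above the average gene, in both hnRNPK repeats and below 1, which is 2-fold, in the FLAG RIP, with an FPKM of at least 2 in both inputs. Mitochondrial genes and their nuclear pseudogenes were left out. The rule chose 107 of the 11764 analysed genes (0.910%), out of 56632 genes in the tables. The members were selected on the measured enrichments of the 3 RIPs, so these are given as descriptions with no test. An enrichment below 1 in the FLAG RIP was found in 90.7% of analysed genes, but in 18.6% of the genes that met the hnRNPK and input limits. With the other repeat left out of the rule, repeat 2 alone gave 131 members and repeat 1 alone gave 191.

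The data were 5 libraries from MCF10A, an immortalised, non-tumorigenic breast epithelial line. The parental cells gave 1 input and 2 RIP repeats with an hnRNPK antibody, both set against that single input. MCF10A cells expressing FLAG-tagged CBFB gave 1 input and 1 RIP with a FLAG antibody, and the labels name no treatment for either line. The study's methods describe stable FLAG-CBFB lines made by lentiviral transduction of CBFB knockout MCF10A cells for protein pulldowns, and the labels do not say whether the RIP line had that background. The CBFB side had no replicate, the cells of the 2 RIPs were not the same line, and a RIP with a control antibody was not analysed here. Nothing in the labels says whether the hnRNPK repeats came from separate cultures, so their spread may be technical.

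hnRNPK is an RNA-binding protein whose KH domains recognise runs of C in single-stranded RNA, and it takes part in splicing, transcription, RNA stability and translation. CBFB is best known as the non-DNA-binding partner of the RUNX transcription factors, which it stabilises on DNA. The study asked which transcripts beyond RUNX1 mRNA CBFB binds. The members are hnRNPK-enriched transcripts that the FLAG RIP did not enrich as far.

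C-rich stretches are the kind of sequence that hnRNPK is known to bind, so the most C-rich window of 30 nt in the representative transcript (the longest coding sequence in GENCODE 29) is shown for 5 members from the top of the hnRNPK order and for SKI, which had the most C in its window among the members shown. Each window is written 5′ to 3′ on the transcript strand, as DNA letters read from GRCh38, with runs of at least 3 C in capitals.
HNRNPUL1: CCCggCCCCCtataCCCCaccgccaCCCCC
B4GALT1: ccgctcgCCCgCCCCCgctccgggCCCtcc
MCOLN3: ccggagctgcggccgctCCCCgctgtCCCC
IQSEC1: CCCtcagCCCCagCCCtgccaCCCCCCCac
MMGT1: ctCCCagtgCCCaCCCCatCCCCgagCCCC
SKI: aCCCCggCCCCCCCCCCaCCCCCtcctCCC

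The HNRNPUL1 window held 21 C and lay in the coding sequence at chr19:41305792-41305821 on the plus strand. The B4GALT1 window held 20 C and lay in the 5′ UTR at chr9:33167267-33167296 on the minus strand. The MCOLN3 window, with 16 C, lay in the 5′ UTR at chr1:85048399-85048428 on the minus strand. The IQSEC1 window, with 21 C, was coding sequence at chr3:12901340-12901369 on the minus strand. The MMGT1 window, with 19 C, lay in the 3′ UTR at chrX:135963117-135963146 on the minus strand. The SKI window, with 24 C, lay in the 3′ UTR at chr1:2309813-2309842 on the plus strand. Such windows are common among expressed genes. Of 10090 protein-coding genes meeting the input limit, 0.595% had a window with as many C as that of SKI, 12.7% as many as HNRNPUL1 and 79% as many as MCOLN3. A window is a match of letters and not a measured binding site.

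The libraries held 69786576 to 106855647 estimated fragments assigned to genes. Mitochondrial genes took 84.5% and 86.6% of them in the hnRNPK RIPs and 62.2% in the FLAG RIP, against 4.27% in the FLAG input and 11.2% in the parental input. Both inputs carried the basal epithelial markers KRT5 (FPKM 1974 and 1640 in the FLAG and parental input) and TP63 (60.4 and 19.7), while KRT14 was low (6.78 and 1.81). The luminal keratins KRT8 (76.6 and 196) and KRT18 (305 and 702) were also high, in both cases more so in the parental input. The other luminal markers were low or absent, with GATA3 at 6.17 and 6.4, ESR1 at 0.71 and 0.67 and PGR at 0 in both. ACTA2 stood at 22.9 and 11.8. The immune markers PTPRC and CD3E did not exceed an FPKM of 0.01. RUNX1, a transcript on the shared side, stood at 2.13 in the FLAG RIP and at 3.09 ± 0.28 (SD, n = 2) with hnRNPK, and GAPDH at -0.18 and -2.69 ± 0.04.

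The members were moderately enriched with hnRNPK. Their mean enrichment over the repeats had a median of 2.54 and ranged from 2.03 to 3.73, against a median of -0.11 over all analysed genes. In the FLAG RIP their enrichment ranged from -0.37 to 0.97 with a median of 0.54, against -0.19 over all analysed genes. Of the 107 members, 13 were below 0 in the FLAG RIP, 39 were between 0 and 0.5, and 55 were between 0.5 and 1. An enrichment below 0 in the FLAG RIP was common, found in 64.9% of analysed genes. The members were thus weak in the CBFB RIP relative to other hnRNPK-enriched transcripts and not relative to the average transcript.

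The whole hnRNPK-enriched set that met the input limit held 574 genes. Of these, 180 had a CBFB enrichment of 1 to 2 and 287 were above 2, and the latter are called shared transcripts below. An hnRNPK enrichment above 2 in both repeats was found in 860 analysed genes (7.31%) before the input limit and the mitochondrial filter, and the 574 were 4.88% of analysed genes. The median hnRNPK enrichment was 2.72 in the class with CBFB at 1 to 2 and 3.75 in the shared transcripts, so the members were the least enriched of the classes with hnRNPK as well. The difference between hnRNPK and CBFB enrichment had a median of 2.04 in the members, 1.26 in the middle class and 0.48 in the shared transcripts.

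**Figure D1:**
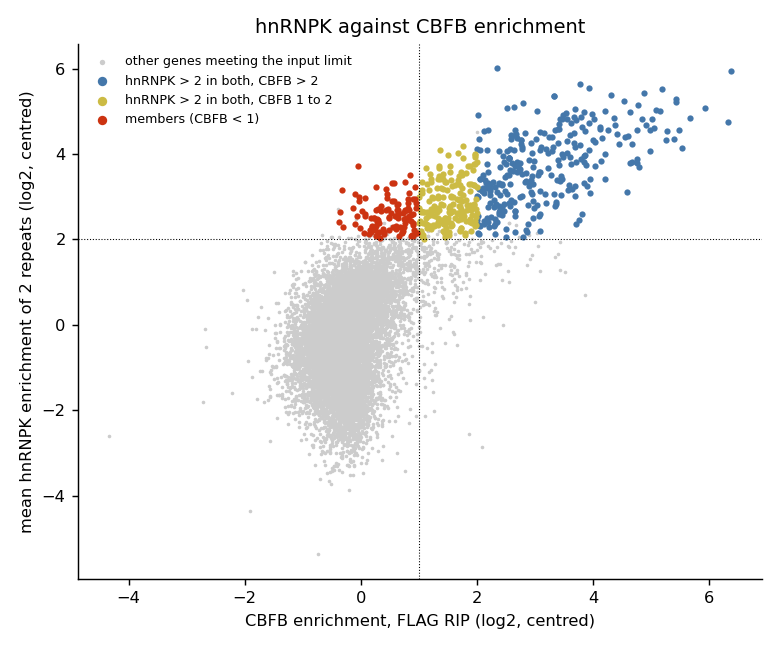
Mean hnRNPK enrichment of the 2 repeats (y axis) against CBFB enrichment in the FLAG RIP (x axis), both centred log2 ratios, 1 point per gene meeting the input limit, with dotted lines at 2 and 1. The members lie at the left edge of the hnRNPK-enriched genes, between -0.37 and 0.97 on the x axis, and the shared transcripts extend further up as well as to the right.

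The hnRNPK repeats of the members lay about as far apart as those of all analysed genes, with an SD of the difference of 0.39 against 0.35. The rule asks both repeats to pass the same threshold, so their closeness is partly set by it. The median SD of the repeats was 0.18, and the repeats differed by more than 1 for 3 members. Repeat 1 was the higher for 84 of the 107 members (78.5%), against 49.7% of analysed genes. The median difference was 0.21 in the members, 0.15 in the shared transcripts and 0 over all analysed genes, so the shift was not particular to the members. edgeR's quasi-likelihood test on the estimated counts, with the 2 RIPs against the 1 input and 1 residual degree of freedom, called all 107 members with a Benjamini-Hochberg adjusted p under 0.05 and a log2 fold change above 2, where it called 15.3% of analysed genes. This contrast is the one the rule used, so nothing is read from that count.

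Without centring, most members were not above their input in both hnRNPK RIPs. The deposited FPKM of a member was above the parental input in both hnRNPK RIPs for 19 of 107 members (17.8%), in repeat 1 for 57 and in repeat 2 for 21, against 4.27% of analysed genes in both repeats. In the shared transcripts it was above in both repeats for 238 of 287 (82.9%). The FLAG RIP was below its own input for all 107 members, as the limit of 1 requires, since the mean log2 ratio subtracted there was -1.34. It was above its own input for 7% of analysed genes. The median member FPKM was 9.83 in the FLAG input, 4.47 in the FLAG RIP, 5.95 in the parental input, 6.78 in hnRNPK repeat 1 and 5.86 in repeat 2. Over all analysed genes those medians were 14.4, 4.26, 14.2, 1.1 and 1.01, so the median over all genes was far below the input in the hnRNPK RIPs while that of the members was near it. With mitochondrial counts left out, the members made up 0.523% of the parental input counts, and 3.86% and 3.63% of those in the hnRNPK RIPs, against 0.749% in the FLAG input and 1.04% in the FLAG RIP. The direction of these shares follows from the rule, which chose the members on the same libraries.

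The members differed from other genes in their inputs, and that difference enters the rule. The FLAG-CBFB cells are a separate line. At a given RIP level, a higher FLAG input lowers the CBFB ratio, and a lower parental input raises the hnRNPK ratio. The FLAG input was above the parental input for 87 of the 107 members (81.3%), against 48.1% of analysed genes, with a median log2 ratio of 0.43 against -0.03. A ratio above 1 was found in 18 members (16.8%), where 4.35% of analysed genes had one, and no member was below -1. The middle class had a median ratio of 0.07 and the shared transcripts of -0.13.

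When each RIP was set against the opposite input, 33 of the 107 members (30.8%) still met the rule. Of the other 74, 58 came to 2 or less in at least 1 hnRNPK repeat and 47 reached 1 in the FLAG RIP, with 31 in both groups. The 33 had a median input ratio of -0.06 and the 74 of 0.64. The hnRNPK enrichment stayed above the CBFB enrichment for 92 of 107 members with the inputs exchanged, against 51.1% of analysed genes, and the median difference fell from 2.04 to 1.2. The rule chose the members for a wide difference in the same RIPs, so the contrast with all genes is largely built in and nothing is read from it. Lower binding by CBFB and a difference between the lines cannot be told apart for any member, as the only FLAG RIP came from a separate line. The exchange puts the difference between the lines into each ratio, so it shows how membership depends on the input and not which transcripts CBFB binds. Of the 29 members named, 5 met the rule with the inputs exchanged (HNRNPUL1, ZKSCAN8, HELZ, ARCN1 and EIF2AK1) and 24 did not.

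**Figure D2:**
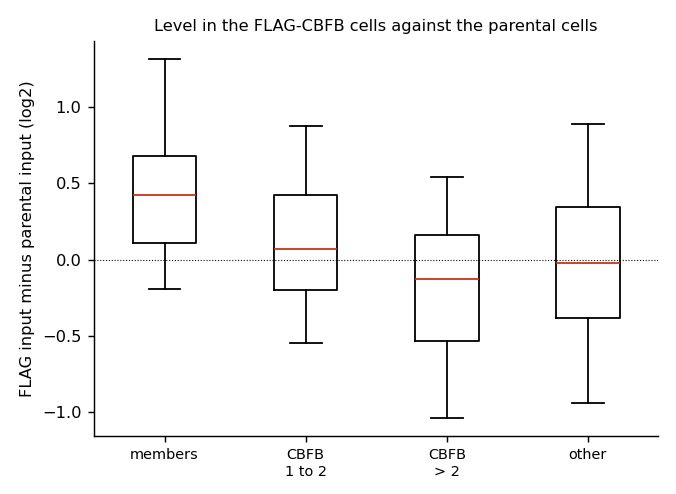
Log2 ratio of the FLAG input to the parental input (y axis, FPKM + 1) for the members, the hnRNPK-enriched genes with CBFB at 1 to 2 and above 2, and other genes meeting the input limit. Lines are medians, boxes the middle 50% of genes and whiskers the 5th to 95th percentiles. The members sit highest, with a median of 0.43.

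Members are described by role. The role groups were assigned by hand after the values were seen, 64 members have one, and the share of each role among all genes was not determined, so the group sizes and medians only order the description. The RNA-processing members included the most enriched protein-coding transcript. HNRNPUL1 (ENSG00000105323, chr19:41262496-41307598, GRCh38), an hnRNP U-like protein that binds RNA and acts in DNA repair, had an FPKM of 112 in the FLAG input and 79.8 in the FLAG RIP. In the parental cells it had 104 in the input, and the hnRNPK RIPs gave 191 and 193. Both hnRNPK libraries lay well above every other library, and the enrichments were 3.48 and 3.56 with hnRNPK against 0.85 with CBFB. The inputs differed by 0.1 on the log2 scale, and HNRNPUL1 remained a member with the inputs exchanged. HELZ, an RNA helicase, had an FPKM of 11.1 in the FLAG input and 3.44 in the FLAG RIP, with 5.94 in the parental input, and 9.24 and 7.53 after hnRNPK RIP. The FLAG RIP value was the lowest of the 5 libraries, and the enrichments were -0.11 with CBFB and 3.07 ± 0.14 with hnRNPK (SD, n = 2). HELZ also remained a member with the inputs exchanged, at 0.73 with CBFB. EIF2AK1, the heme-regulated kinase that phosphorylates eIF2 alpha, had an FPKM of 61.7 in the FLAG input, 46.6 in the FLAG RIP, 64.2 in the parental input and, after hnRNPK RIP, 65.7 and 72.1. Its inputs were alike, its enrichment was 0.94 with CBFB and 2.74 ± 0.14 with hnRNPK, and it too met the rule with either input. RBM33, an RNA-binding protein, was also in this group of 5, whose median hnRNPK enrichment was 2.95 and median CBFB enrichment 0.85.

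The Golgi and membrane traffic group held 11 members, with a median of 2.55 with hnRNPK and 0.76 with CBFB. B4GALT1, the galactosyltransferase of the Golgi that builds N-acetyllactosamine on glycans, had an FPKM of 83.4 in the FLAG input and 55.4 in the FLAG RIP. The parental input gave 64.6 and the hnRNPK RIPs 133 and 83.8, so that both repeats exceeded the input while repeat 1 was far the higher. Its enrichment was 3.35 ± 0.42 with hnRNPK and 0.76 with CBFB, which became 1.15 on the opposite input, outside the rule. ARCN1, the delta subunit of the COPI coat, had 63.9 in the FLAG input and 43.9 in the FLAG RIP, and 66.7 in the parental input with 88.3 and 76.7 in the hnRNPK RIPs. The inputs agreed within 0.06 on the log2 scale, the enrichments were 0.81 and 2.94 ± 0.09, and ARCN1 met the rule with either input. GORASP2, a Golgi stacking protein, had 49.9 in the FLAG input and 35.6 in the FLAG RIP. Its parental input was 45.4 and its hnRNPK RIPs 48.4 and 38, which straddled the input, and it rose to 1.03 with CBFB on the opposite input. ST6GALNAC2, a sialyltransferase, had 30.02 in the FLAG input and 20.9 in the FLAG RIP, and 11.6 in the parental input with 22.8 and 11.3 in the hnRNPK RIPs. The FLAG input was the highest of its 5 libraries, and exchanging the inputs gave 2.17 with CBFB. MAL2, a transcytosis protein of epithelial cells, had an enrichment of 2.55 ± 0.3 with hnRNPK and 0.84 with CBFB, an input ratio of 0.23, and 1.09 with CBFB on the opposite input.

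Transcription factors and their cofactors made up 21 members, with medians of 2.51 with hnRNPK and 0.61 with CBFB. ZKSCAN8, a zinc finger protein, had an FPKM of 6.15 in the FLAG input and 1.25 in the FLAG RIP, with 3.26 in the parental input, and 6.78 and 3.76 after hnRNPK RIP. The FLAG RIP was the lowest of its libraries by a wide margin. The enrichment was -0.33 with CBFB and 3.16 ± 0.45 with hnRNPK, and with the inputs exchanged it stayed a member at 0.45 and 2.38. VEZF1, a zinc finger factor of vascular development, had 22 in the FLAG input, 6.12 in the FLAG RIP, 14.2 in the parental input and, after hnRNPK RIP, 16.9 and 12.1. Its enrichment was -0.35 with CBFB and 2.65 ± 0.27 with hnRNPK, and repeat 2 fell to 1.83 on the opposite input. CALCOCO1, a coactivator that also serves as an autophagy receptor and was not placed in a role group, had 22.6 in the FLAG input and 6.55 in the FLAG RIP. The parental input gave 9.96 and the hnRNPK RIPs 8.41 and 6.76, both below the input, and its enrichments were -0.3 with CBFB and 2.28 ± 0.15 with hnRNPK. On the opposite input its hnRNPK repeats were 1.25 and 1.04.

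Chromatin and transcription machinery held 14 members, with medians of 2.41 with hnRNPK and 0.46 with CBFB, and 3 of them were below 0 in the FLAG RIP. KDM1B, a histone H3K4 demethylase, had an FPKM of 9.83 in the FLAG input and 2.3 in the FLAG RIP, the lowest of its 5 libraries. The parental input was 5.95 and the hnRNPK RIPs 6.71 and 3.46, on either side of it, with enrichments of 2.76 and 2.04. The CBFB enrichment of -0.37 was the lowest among the members. SMARCC2, a core subunit of the BAF remodelling complex, had 33.1 in the FLAG input and 11.5 in the FLAG RIP, and 20.7 in the parental input with 18.9 and 14.9 in the hnRNPK RIPs. Its enrichments were -0.1 with CBFB and 2.35 ± 0.18 with hnRNPK. On the opposite input KDM1B reached 1.37 in repeat 2 and SMARCC2 1.55, so neither met the rule there.

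The group of receptors, ligands and signalling genes held 13 members, with medians of 2.45 with hnRNPK and 0.33 with CBFB, and it included NGFR and NOTCH3, the members with the largest input ratios. IQSEC1, an exchange factor for ARF6, had an FPKM of 6.26 in the FLAG input and 4.46 in the FLAG RIP, with 4.43 in the parental input, and 8.23 and 6.23 after hnRNPK RIP. Both repeats exceeded the parental input, and the enrichments were 3.23 ± 0.2 with hnRNPK and 0.93 with CBFB. On the opposite input IQSEC1 reached 1.38 with CBFB and left the class. NOTCH3, a Notch receptor, had 12.7 in the FLAG input and 4.33 in the FLAG RIP, and 2.36 in the parental input with 4.34 and 2.45 in the hnRNPK RIPs. The enrichments of -0.03 and 3 ± 0.4 changed to 2.04 with CBFB and to 1.21 and 0.65 with hnRNPK when the inputs were exchanged. NGFR, the low-affinity neurotrophin receptor and a basal marker of breast epithelium, had 16.4 in the FLAG input and 11.2 in the FLAG RIP, and 3.05 in the parental input with 5.16 and 1.84 in the hnRNPK RIPs. Its input ratio of 2.1 was the largest among the members. On the opposite input NGFR stood at 2.97 with CBFB and at 1.08 and 0.03 with hnRNPK, the reverse order.

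Several members outside these groups stood high in the order as well. MCOLN3, a cation channel of endosomes, had an FPKM of 4.98 in the FLAG input, 2.43 in the FLAG RIP, 3.02 in the parental input and, after hnRNPK RIP, 7.37 and 3.92. Both repeats exceeded the parental input, with an enrichment of 3.32 ± 0.49 against 0.54 with CBFB, or 1.14 with CBFB on the opposite input. CREG1, a lysosomal glycoprotein, had 229 in the FLAG input and 108 in the FLAG RIP, and 80.3 in the parental input with 163 and 88.3 in the hnRNPK RIPs. Its input ratio was 1.5, and exchanging the inputs gave 1.79 with CBFB. MMGT1, a subunit of the ER membrane protein complex, had 15 in the FLAG input, 7.53 in the FLAG RIP, 5.42 in the parental input and, after hnRNPK RIP, 9.55 and 7.24, with an input ratio of 1.31. TRIM29, a basal epithelial TRIM protein, had enrichments of 0.64 with CBFB and 2.68 ± 0.27 with hnRNPK and an input ratio of 0.76, and stood at 1.43 with CBFB on the opposite input. RIMOC1, a regulator of mitophagy, had -0.14 with CBFB and 2.73 ± 0.15 with hnRNPK, an input ratio of 0.9, and hnRNPK repeats of 1.91 and 1.69 on the opposite input. NIPAL4, a transporter of keratinocytes, and SH3PXD2A, a scaffold of invadopodia, had input ratios of 1.76 and 1.44, and both rose above 1 with CBFB on the opposite input, to 2.51 and 1.7.

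**Figure D3:**
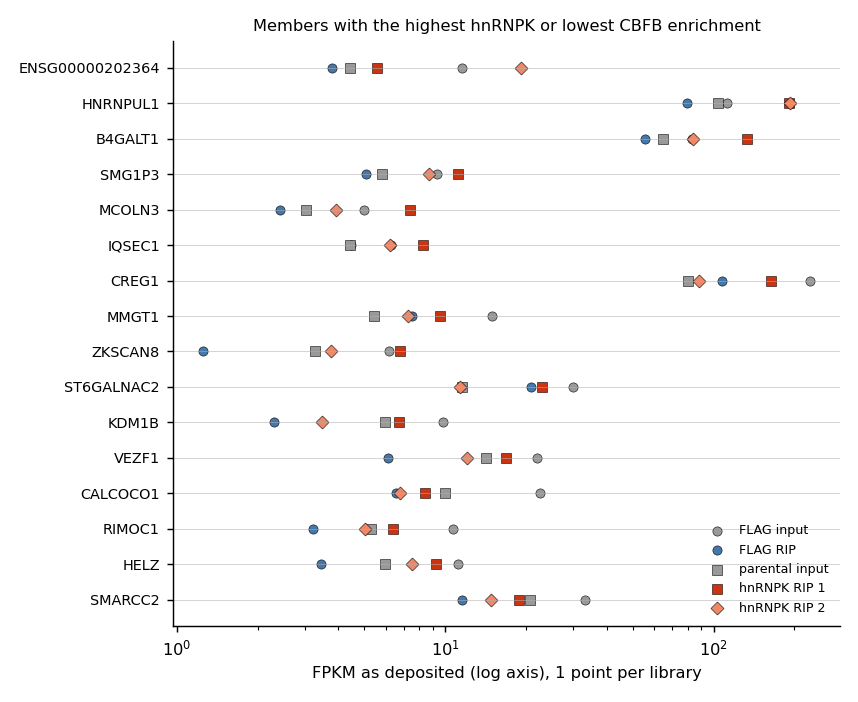
Deposited FPKM (x axis, log scale) of the members with the highest hnRNPK or the lowest CBFB enrichment, 1 row per gene and 1 point per library. The FLAG RIP lies to the left of the FLAG input in every row, while hnRNPK repeat 1 lies to the right of the parental input in all rows but those of CALCOCO1 and SMARCC2, as for HNRNPUL1 at 191 against 104.

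Not all members were protein-coding. Of the 107, 90 were protein-coding, 13 had another GENCODE 29 biotype and 4 had no gene there. The share not annotated as protein-coding was 15.9%, against 7.39% of genes meeting the input limit, 5% of the middle class and 11.5% of the shared transcripts. These shares count genes absent from GENCODE 29 as not protein-coding, among them those 4 members, whose biotype is unknown. The contrast thus rests in part on missing annotation. The 13 comprised 4 antisense genes, 3 transcribed unprocessed pseudogenes, 2 processed transcripts, 2 processed pseudogenes, 1 lincRNA and 1 sense-overlapping gene. The pseudogenes SMG1P1, SMG1P3 and SMG1P5 share long stretches with SMG1, so their counts rest on how reads were split. SMG1P3 had an FPKM of 9.3 in the FLAG input, 5.06 in the FLAG RIP, 5.81 in the parental input and, after hnRNPK RIP, 11.1 and 8.71. SMG1 itself, the kinase of nonsense-mediated decay, had an hnRNPK enrichment of 1 ± 0.08 against 3.32 ± 0.18 for SMG1P3, which reached 1.2 with CBFB on the opposite input. The highest mean hnRNPK enrichment, 3.73 ± 1.2, belonged to ENSG00000202364, for which GENCODE 29 gives no gene. Its parental input held 20 estimated counts and its hnRNPK RIPs 34 and 101, so its repeats of 2.88 and 4.58 were the least alike among the members. ENSG00000259952, an antisense gene at chr16:29806496-29807732, had an input ratio of 1.96. Strand use in the counting was not given in the sources used here, so reads of antisense and overlapping genes cannot be told apart from those of their partners.

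On the X chromosome lay 9 of the members, or 8.41%, against 3% of genes meeting the input limit, 5% of the middle class and 2.79% of the shared transcripts. The 9 had a median input ratio of 0.84, while the 345 analysed genes of the X chromosome had one of 0.04. With so few genes this is a description, and the higher FLAG input moved with it. The part of the input in it was not tested.

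The gene lists held members at about the share of all analysed genes. The 18 lists held 562 genes, of which 474 were analysed, 45 (9.49%) were hnRNPK-enriched and 5 (1.05%) were members, against 4.88% and 0.910% of all analysed genes. The list of hnRNP family proteins had 2 hnRNPK-enriched genes of 29 analysed, of which HNRNPUL1 was the member. The list of Notch, Wnt and Hedgehog signalling had 10 of 33 analysed genes enriched with hnRNPK. Of these 10, NOTCH3, BCL9 and GLI3 were members, 4 had a CBFB enrichment of 1 to 2, and 3 were above 2. BCL9, a Wnt coactivator, had enrichments of 0.78 with CBFB and 2.51 ± 0.01 with hnRNPK, and GLI3, a Hedgehog transcription factor, had 0.14 and 2.12 ± 0.06. The list of TGF-beta and BMP signalling had 3 of 24 enriched, with SKI, a repressor of SMAD signalling, the member at 0.89 and 2.39 ± 0.02. The input ratios of BCL9, GLI3 and SKI were 0.67, 0.59 and 0.37, and none of them met the rule on the opposite input. The median hnRNPK enrichment of the Notch, Wnt and Hedgehog list was 1.01 and that of the hnRNP list -1.52, against -0.11 over all analysed genes. The other 15 lists held no member, and at a background of 0.910% lists of this size say nothing by holding none.

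The transcripts of the members were long and less C-rich than those of the other hnRNPK-enriched genes. The rule did not use these features directly, but both enrichments varied with them over all genes, as given below. Over protein-coding genes, the median C content of the representative transcript was 25.6% in the members, 28.9% in the class with CBFB at 1 to 2, 32.5% in the shared transcripts and 24% in all genes meeting the input limit. The motif CCCC, counted on the transcript strand with overlaps, occurred 6.55 times per kb in the members, 10.9 in the middle class, 15.8 in the shared transcripts and 4.47 in all. A 30-nt window with at least 20 C was present in 42.2% of the members, 67.3% of the middle class, 70.1% of the shared transcripts and 23.3% of all. On each of these measures the members stood between the shared transcripts and all genes meeting the input limit, nearer to the latter.

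The members had the longest median 3′ UTR of the classes. The median was 2096 nt in the members, 1559 nt in the middle class, 805 nt in the shared transcripts and 970 nt in all genes meeting the input limit. The whole transcript had a median of 4216 nt, 3891 nt, 2750 nt and 3042 nt in the same order. Among representative transcripts of 3000 to 6000 nt, C content was 25.9%, 28.8%, 32.2% and 23% in the same order. At a parental input FPKM of 2 to 10 it was 24%, 28.3%, 32.6% and 23%. The 3′ UTR medians at 3000 to 6000 nt were 2011 nt, 1952 nt, 1320 nt and 1786 nt. At like transcript length the 3′ UTR of the members was thus little longer than in the middle class and in all genes. At an input FPKM of 2 to 10 the medians were 2579 nt, 1807 nt, 947 nt and 1545 nt. Both restrictions were chosen after the values were seen. In the 26 protein-coding members that met the rule with either input, the median was 26.8% and the 3′ UTR 2202 nt. The CCCC density of these 26 was higher than that of all protein-coding members and closer to that of the middle class, as given in the last paragraph. Across the 515 hnRNPK-enriched protein-coding genes, Spearman's rho with C content was 0.55 for CBFB enrichment and 0.22 for hnRNPK enrichment, and with GC content 0.47 and 0.12. Over all 10090 protein-coding genes meeting the input limit, rho with C content was 0.21 and 0.16, and the 515 were selected on these same enrichments. Over the same 10090 genes, rho with transcript length was -0.31 for CBFB and 0.33 for hnRNPK enrichment, and with 3′ UTR length -0.18 and 0.28. A rule for high hnRNPK and low CBFB enrichment therefore leans towards long transcripts among all genes. Within the 90 protein-coding members rho with C content was 0.41 and -0.09. These correlations run across genes of the same libraries, which are not independent replicates, and they share library depth and base composition.

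**Figure D4:**
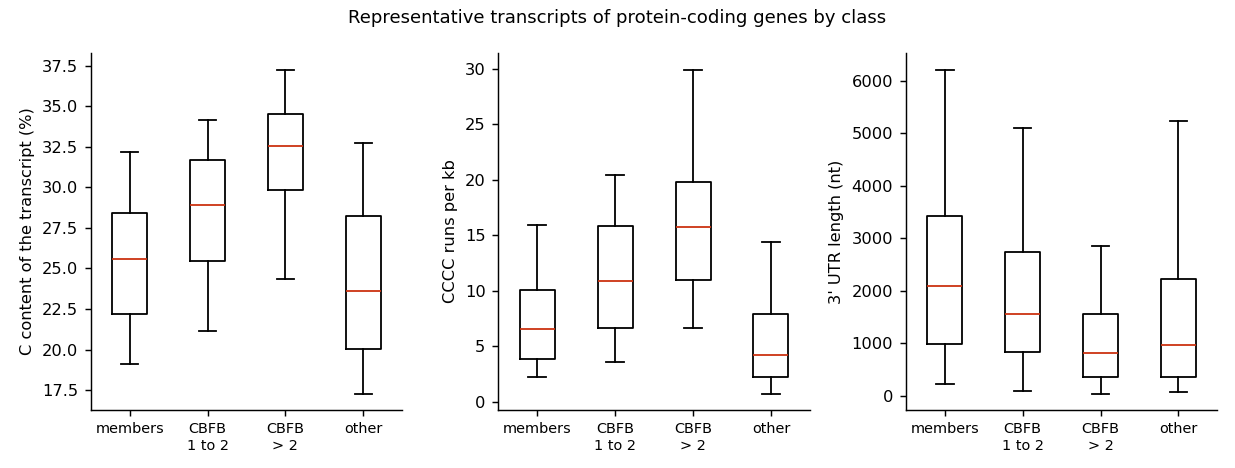
C content (%), CCCC runs per kb and 3′ UTR length (nt) of the representative transcripts of protein-coding genes, for members, hnRNPK-enriched genes with CBFB at 1 to 2 and above 2, and other genes. Lines are medians, boxes the middle 50% and whiskers the 5th to 95th percentiles. C content rises from 25.6% in members to 32.5% in the shared transcripts, while the 3′ UTR shortens from 2096 nt to 805 nt.

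The edges of the class were not gaps in the data. Just inside the hnRNPK threshold lay MID2 (2.99 and 2.01 in the repeats) and RAB2B (2.43 and 2.01), and just outside lay SH3KBP1 (2.753 and 1.999) and TPM3 (1.996 and 2.174). Just inside the CBFB limit lay CARM1 at 0.97 and AHDC1 at 0.96, and just outside lay FAM168A at 1.004 and MARK2 at 1.005. The nonmembers nearest to the median member over the 3 enrichments included SIPA1L3, ZBTB4, ENTPD5 and SFXN3. SIPA1L3 had 0.52 with CBFB and 2.67 and 1.97 with hnRNPK, so it missed the class by repeat 2 alone, and SFXN3 had 1.02 with CBFB and 2.53 and 2.33 with hnRNPK. The class is a section of a continuous range, and where its edge falls decides membership for such genes.

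**Figure D5:**
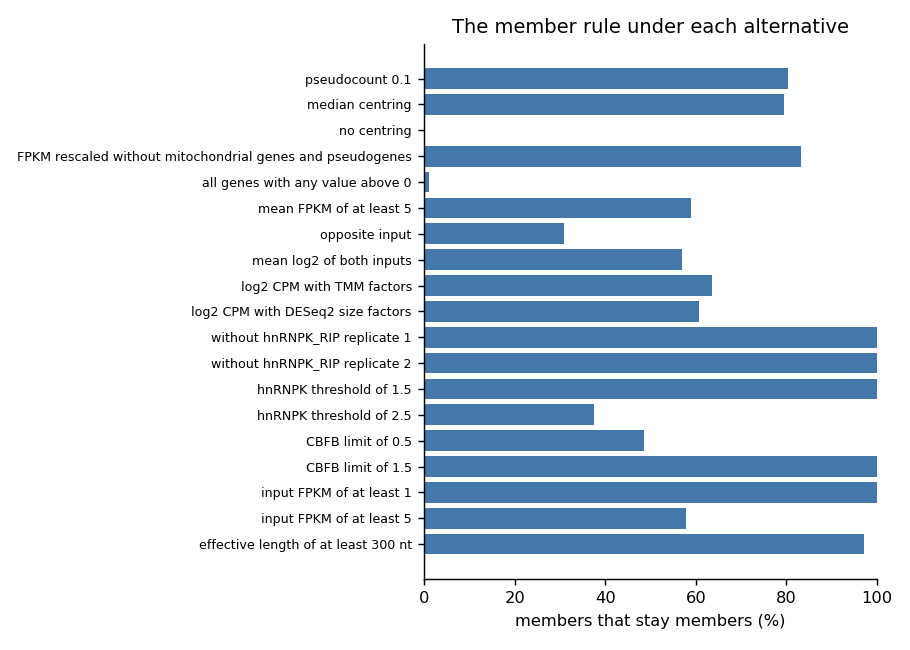
Percent of the 107 members that still met the rule (x axis) under each other way of computing it (rows). The share was 30.8% with the opposite input and 57% with the mean of both inputs, and 100% with either hnRNPK repeat alone, as that form of the rule requires.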

How the data were processed

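RIPseq and input libraries of MCF10A cells were prepared by the authors with a TruSeq mRNA kit, and the submitters' processing notes name Trimmomatic, STAR, RSEM and the build hg19. Versions and the annotation release were not given in the sources used here. The deposited RSEM gene tables hold estimated (expected) counts, FPKM, TPM and transcript lengths for each library, with replicates not pooled. FPKM is relative to all assigned fragments, mitochondrial ones included, and TPM was not used. From the deposited FPKM, log2 ratios were computed as described, with Python 3.11.15, pandas 2.3.3 and numpy 2.4.6, for genes whose FPKM averaged 1 or more in the 5 libraries. Rounded expected counts as deposited were tested with edgeR 4.0.16 (quasi-likelihood) and DESeq2 1.42.0 in R 4.3.3, and the scripts were tested on simulated data. With 1 input and 1 FLAG RIP library, no test of the CBFB RIP was made.

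Transcript features and coordinates came from GENCODE 29 on GRCh38, matched by gene or transcript ID, and the tables themselves hold no coordinates. Of 56632 genes, 50276 were named by gene ID and 1221 by transcripts. The members and lists were chosen with earlier results of these data known, and the role groups and added alternatives after the values were seen. Genes named were those with at least 50 estimated counts in the hnRNPK RIPs and parental input together and the 10 highest in hnRNPK enrichment, the 8 lowest in CBFB enrichment, the 8 highest in parental input, the 8 with the largest input ratio and up to 4 per list. The 1 lincRNA among the members was left out of the naming, and some genes the rule names are not reported here. Alternatives changed the pseudocount, centring, scaling, filters, inputs, thresholds and repeats.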

Additional observations from a re-analysis of the deposited data

Results flagged for a closer look

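The 9 named members with an enrichment below 0 in the FLAG RIP are listed because the rule places both hnRNPK repeats above the average gene while the FLAG RIP lay below it. They belong to 13 members below 0 and run on without a gap into those just above 0. As the FLAG RIP is a single library, the difference was not tested. The hnRNPK minus CBFB enrichment was 3.79 for ENSG00000202364, which rests on 20 estimated counts in the parental input. It was 3.49 for ZKSCAN8, 3.18 for HELZ, 3.02 for NOTCH3, 3.01 for VEZF1, 2.86 for RIMOC1, 2.77 for KDM1B, 2.59 for CALCOCO1 and 2.46 for SMARCC2. With the inputs exchanged, all 9 were above 0 with CBFB, from 0.27 for VEZF1 to 2.04 for NOTCH3. No group held the 4 samples that a check for single outlying samples needs.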

How the results depend on the processing

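No paired analysis was possible because only 1 replicate number occurs in both arms of any comparison. The number of members (107) and its lists depended on the construction of the enrichment. With the inputs exchanged, 30.8% of members stayed, with medians of 2.13 with hnRNPK and 0.96 with CBFB. With the mean of the inputs 57% stayed (2.32 and 0.73). Without centring, 2 genes met the rule, 0% of members stayed and the medians were -0.11 and -0.8. Analysing and centring on all genes with any value gave 10 genes, 0.935% of members and medians of 1.18 and -0.13. Limiting the analysed genes to a mean FPKM of 5 or more changed both the centring and which genes could be members. That setting kept 58.9% of members with an hnRNPK median of 3, and the parts of filter and centring in the loss were not separated. Median centring moved the CBFB median to 0.73. The centring itself moves every gene by one amount in each of these settings. Relative to the median of all genes analysed in the main form, the members stood 2.65 higher with hnRNPK and 0.73 with CBFB under each. A pseudocount of 0.1 gave 290 genes (hnRNPK median 3.31), and FPKM rescaled without mitochondrial genes 269 (3.23). Log2 CPM with TMM factors gave 412 genes, 63.6% of members and medians of 3.81 and 0.89, and with DESeq2 size factors 477 genes, 60.7%, 3.99 and 0.93. A threshold of 1.5 for hnRNPK gave 303 genes and of 2.5 gave 40 (37.4% of members). A CBFB limit of 0.5 gave 52 (48.6%) and of 1.5 gave 193. An input FPKM of 5 gave 62 (57.9%). Leaving out 1 hnRNPK repeat gave 131 to 191 genes. The cause was not tested for the pseudocount, the rescaling or the CPM scales.

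Without centring, the hnRNPK value of named members fell below 0 for KDM1B (-0.25), CALCOCO1 (-0.36), SMARCC2 (-0.29), MAL2 (-0.09), GORASP2 (-0.08), NIPAL4 (-0.47), SH3PXD2A (-0.14), BCL9 (-0.13), GLI3 (-0.52) and SKI (-0.26). In the 33 members that also met the rule with the opposite input, the input ratio was -0.06, against 0.43 in all 107. In the 26 protein-coding ones among them the CCCC density was 9.23 per kb, against 6.55 in the 90 protein-coding members and 10.9 in the middle class. DESeq2 called all 107 members, as did edgeR in its main form. Of all analysed genes, DESeq2 called 15.6% and edgeR in its main form 15.3%. Both test the hnRNPK RIPs that chose the members, so nothing is read from the counts. C content of the members kept within 24% to 26.8%. The 1 FLAG RIP and 1 input per line limit every value, and 4 members had under 100 counts in a library.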
